A study of Rattus norvegicus with 5 samples.

Results

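Among the transcripts measured in rat ovaries, 20 were lower after cisplatin on both dosing schedules and back near the control level in both ovaries that were also given platelet-rich plasma (PRP). They were picked by these values, out of 299341 transcripts listed in any of the 5 libraries and 17108 that reached 5 TPM in the control ovary. TPM is a relative abundance in which counts are divided by transcript length and scaled to the same total in each library. All differences below are in log2(TPM + 1), which understates the change of low transcripts. A member had at least 5 TPM in the control ovary and lay at least 1 unit below control in both cisplatin ovaries. A unit is 2-fold in TPM + 1, and more than that in TPM. In both PRP ovaries it lay within 1 unit of control and at least 1 unit above the ovary with the same number of cisplatin injections.

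The ovaries came from female Sprague Dawley rats aged 10 to 12 weeks, in 5 groups of 6 rats, with 1 ovary per group sequenced. The control rats received 5 injections of NaCl 0.9%. Cisplatin at 3 mg/kg was injected into the peritoneum once a week, either 3 times (labelled mild premature ovarian insufficiency) or 5 times (labelled severe). For each schedule 1 further group had PRP from the blood of donor rats injected into the ovary 1 week after the last cisplatin dose. This was done through a laparotomy with 3 days of antibiotics, so PRP, surgery and antibiotics cannot be told apart. The PRP ovaries were taken 2 weeks after PRP, and the control ovary 2 weeks after the last injection. For rats given cisplatin without PRP, the labels name no collection time, so PRP and time since the last dose cannot be told apart either. The only control had 5 injections, so the 3-injection groups have no control of the same schedule.

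Cisplatin is a platinum drug that forms crosslinks in DNA. In the ovary it damages follicles, the units made of an oocyte and its surrounding granulosa cells, and it is used to model the early loss of ovarian function called premature ovarian insufficiency. PRP is a platelet concentrate, and platelets carry growth factors in granules that they release when activated. Ovarian tissue holds follicle, theca, luteal, stromal, vascular and blood cells in proportions that differ between ovaries. In bulk tissue fewer cells of a type and less RNA per cell cannot be told apart.

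The transcripts carry running numbers without gene names, so the members are described by number, length and level. No marker gene, and so no cell type, could be looked up. Each group has 1 library, which gives no measure of how animals of a group differ, and nothing was tested. The members' levels are a description of the values that picked them. The total estimated count ranged from 26383246 to 31822055 per library, and 180115 to 258238 transcripts were listed. Fragments, measured by how far the effective length falls short of the transcript length, were 229.9 bases long in the control library. They were 186 bases long in the 3-injection library and 217.1 with PRP added, and 223.3 bases in the 5-injection library and 194 with PRP added. Fragments were thus shortest in 1 cisplatin library and 1 PRP library. With 1 effective length per transcript used for all libraries, a setting chosen after the data were seen, the same 20 transcripts passed the rule. That setting changes only the length by which counts are divided and leaves the counts as they are. The part of fragment length in the members' levels was not tested.

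Each step of the rule was first set against all 17108 transcripts that reached 5 TPM in the control ovary. Of these, 14.8% lay at least 1 unit below control after 3 injections and 10.9% after 5. Both held for 1122 transcripts, or 6.56%. At least 1 unit above the matching cisplatin ovary lay 9.03% with PRP after 3 injections and 6.79% with PRP after 5. Within 1 unit of control lay 72.9% in the 3-injection PRP ovary and 61.2% in the 5-injection PRP ovary. The full rule held for 0.117% of the 17108 transcripts. The members pass each step by construction, and the steps share the control library and the 2 cisplatin libraries.

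The 20 members were 1.78% of the 1122 transcripts that were lower in both cisplatin ovaries. For 685 of the 1122, neither PRP ovary lay 1 unit above its cisplatin ovary. A further 110 returned to within 1 unit of control with PRP after 3 injections alone, and 74 did so after 5 injections alone. Of the 67 that were at least 1 unit higher with PRP on both schedules, 20 were within 1 unit of control on both. The other 1102 lowered transcripts had a median difference from control of -2.42 in the 3-injection PRP ovary and -2.76 in the 5-injection PRP ovary. At least 1 unit below control were 927 of the 1102 in the former and 959 in the latter, against 3326 and 5359 of the 17108. Most transcripts lower in both cisplatin ovaries were thus also lower in each PRP ovary. The 1102 were picked as low against the same control library and leave out the members, so a high share is partly built in. The reverse pattern, at 5 TPM or more and at least 1 unit above control in both cisplatin ovaries, held for 699 transcripts. Of these, 25 were back within 1 unit of control and at least 1 unit below the matching cisplatin ovary with PRP. Here the minimum of 5 TPM was set on both cisplatin libraries and not on control. The number of transcripts reaching it was not computed, so these counts have no share and are not directly comparable with 1122 and 20.

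**Figure D1:**
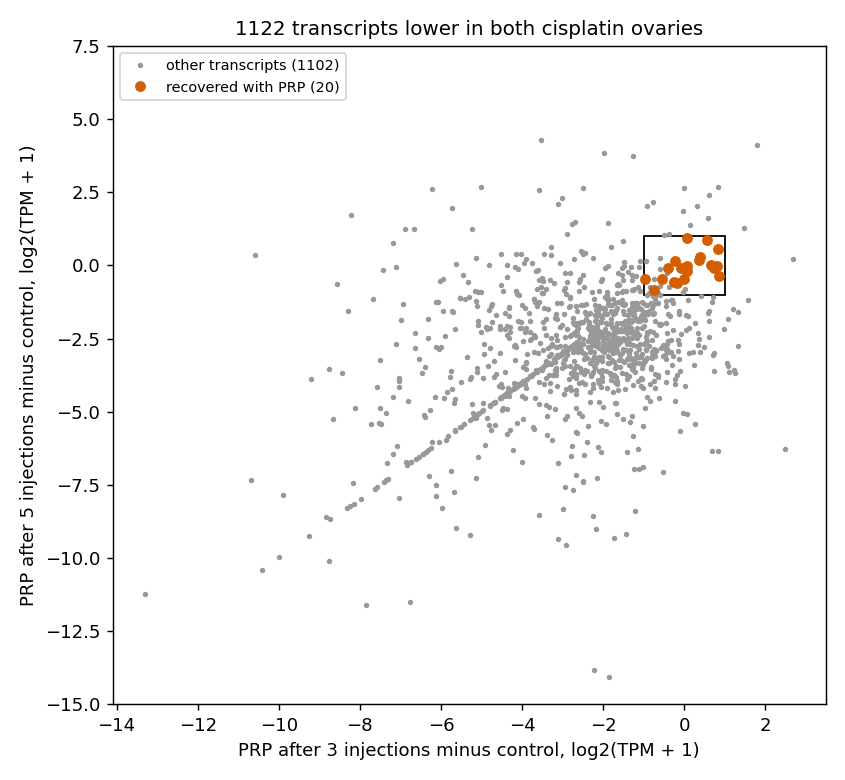
Each point is 1 of the 1122 transcripts that were at least 1 log2 unit below control in both cisplatin ovaries. The axes give the difference from control in the 3-injection (x) and 5-injection (y) PRP ovaries, in log2(TPM + 1), and the square marks 1 unit either way. The 20 members (orange) lie in the square together with 14 transcripts that were not 1 unit above their cisplatin ovary on both schedules. The line of grey points along the diagonal is formed by transcripts at 0 in both PRP libraries, of which there were 132.

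The members' median level was 10.5 TPM in the control ovary. It was 1.39 TPM after 3 injections and 1.92 TPM after 5. With PRP it was 10.5 TPM after 3 injections and 9.34 TPM after 5. Over the 17108 transcripts the medians were 13.9, 13.9 and 14.4 TPM in the control, 3-injection and 5-injection ovaries, and 14.1 and 9.42 TPM with PRP after 3 and 5 injections. The median difference of the 5-injection PRP ovary from control over these transcripts was -0.43, and it depended on the scaling, since quantile normalization gave -0.16 and median-of-ratios scaling gave -0.20. Summed over the 20 members, the level was 660.7 TPM in the control ovary, 153 TPM and 123 TPM in the cisplatin ovaries, and 712.1 TPM and 692.1 TPM with PRP. The 5 most abundant members made up 78.8% of the sum in the control ovary.

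**Figure D2:**
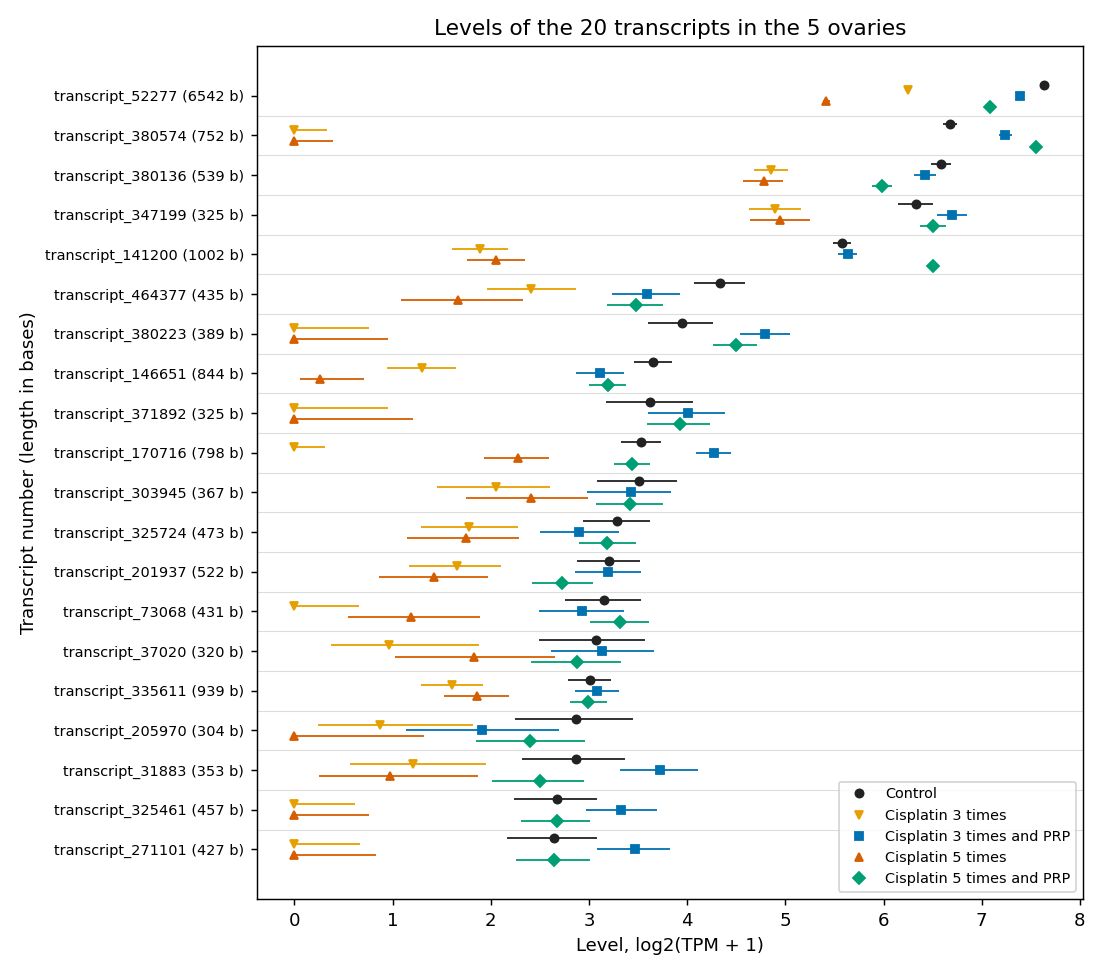
Levels of the 20 members in log2(TPM + 1), ordered by control level. Points are single libraries and lines are exact Poisson 95% intervals, which cover counting error only. Both cisplatin points lie left of the control and PRP points in every row, and the intervals separate in 17 of the 20 rows.

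The most abundant member, transcript_52277, was also the longest, with a length of 6542 bases. The control ovary had 198 TPM (exact Poisson 95% interval 195.6 to 199.8). The cisplatin ovaries had 74.9 TPM (73.5 to 76.2) for 3 injections and 41.7 TPM (40.7 to 42.8) for 5. With PRP it was 167 TPM after 3 injections (164.5 to 168.7) and 134 TPM after 5 (132.9 to 135.9). The 2 cisplatin levels were 2.64-fold and 4.74-fold lower than control. Both PRP levels stayed below control, at 84.3% and 68% of it, and none of the 5 intervals overlapped. With 34045 estimated counts in the control library it had the highest count of the members. The intervals of all members cover counting error only.

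The largest differences were in transcript_380574, of 752 bases. It was at 101.5 TPM in the control ovary, 150.0 TPM in the 3-injection PRP ovary and 186 TPM in the 5-injection PRP ovary. It had 0 estimated counts in both cisplatin libraries. Against a floor of 3 counts per library, the 3-injection ovary was at least 486.9-fold lower than control and the 5-injection ovary at least 401.4-fold. With PRP the level was at least 719.6-fold higher than with cisplatin alone after 3 injections, and at least 736.9-fold higher after 5. In both PRP ovaries the level was above control, by 0.56 and 0.87 units. Its control and PRP estimates were not whole numbers, so reads shared with similar transcripts had been divided, and its level depends on that division.

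A further 4 members had estimated counts that rounded to 0 in both cisplatin libraries, with lower levels elsewhere. In transcript_380223, of 389 bases, the level was 14.4 TPM in the control ovary and 26.7 TPM and 21.5 TPM with PRP after 3 and 5 injections. That of transcript_371892, of 325 bases, was 11.3 TPM in the control ovary, 15.1 TPM with PRP after 3 injections and 14.2 TPM with PRP after 5. Both were above control in both PRP ovaries. In transcript_325461, of 457 bases, the control level of 5.37 TPM was close to the 5.38 TPM of the 5-injection PRP ovary, while the 3-injection PRP ovary had 9.05 TPM. In transcript_271101, of 427 bases, the control level of 5.25 TPM was likewise close to the 5.23 TPM of the 5-injection PRP ovary, and the 3-injection PRP ovary had 10.05 TPM. These control levels rest on 67, 37, 34 and 29 counts. The floor of 3 counts for the 4 transcripts lay between 0.430 and 1.07 TPM in the cisplatin libraries.

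Another 3 members had an estimated count that rounded to 0 in a single cisplatin library. After 3 injections this was the case for transcript_170716, of 798 bases, and transcript_73068, of 431 bases. The former had 10.6 TPM in the control ovary, 3.83 TPM after 5 injections, and 18.3 and 9.87 TPM with PRP after 3 and 5 injections. The latter had 7.90 TPM in the control ovary, 1.27 TPM after 5 injections, and 6.59 and 8.98 TPM with PRP. In both, the 5-injection level was nearer to control than the 3-injection level, by 2.27 and 1.18 units. After 5 injections it was the case for transcript_205970. This transcript, of 304 bases, had 6.31 TPM in the control ovary, 0.83 TPM after 3 injections, and 2.75 and 4.27 TPM with PRP.

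The other 12 members had counts in all 5 libraries. Among them transcript_141200, of 1002 bases, had the largest smaller difference of the 2 schedules. The control ovary had 46.7 TPM (43.9 to 49.7), and the cisplatin ovaries had 2.71 TPM (2.04 to 3.50) for 3 injections and 3.15 TPM (2.37 to 4.10) for 5. With PRP it was 48.7 TPM after 3 injections (45.6 to 52.0) and 90.04 TPM after 5 (86.5 to 93.6). The cisplatin levels were 17.2-fold and 14.8-fold lower than control, and the 3-injection PRP interval overlapped that of control. The 5-injection PRP level was 192.8% of control, close to the limit of the rule, and with median-of-ratios scaling the transcript did not pass.

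A pair of shorter abundant members showed smaller differences. In transcript_380136, of 539 bases, the control level was 95.2 TPM, the cisplatin levels were 27.9 TPM after 3 injections and 26.4 TPM after 5, and the PRP levels were 84.7 TPM and 62.3 TPM. The cisplatin levels of the 2 schedules had overlapping intervals (24.6 to 31.7 and 22.7 to 30.4 TPM). In transcript_347199, of 325 bases, the control level was 79.6 TPM, the cisplatin levels were 28.8 and 29.8 TPM, and the PRP levels were 102.9 and 89.9 TPM. Here too the cisplatin intervals overlapped, and the 5-injection PRP interval (81.8 to 98.6 TPM) overlapped that of control (70.1 to 89.8 TPM).

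In transcript_464377 and transcript_146651 both PRP levels were well below control. The former, of 435 bases, was at 19.1 TPM in the control ovary, 4.33 and 2.17 TPM after 3 and 5 injections, and 11.03 and 10.1 TPM with PRP, which is 57.7% and 53% of control. The latter, of 844 bases, was at 11.6 TPM in the control ovary and 1.46 TPM after 3 injections. After 5 injections it was at 0.20 TPM (0.04 to 0.63), from 3 counts. With PRP it was at 7.64 and 8.12 TPM, or 65.9% and 70.1% of control. Both had a lower level after 5 injections than after 3, by 0.75 and 1.04 units.

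A single member, transcript_335611 of 939 bases, had whole estimated counts in every library, so its reads need not have been divided among similar transcripts. It had 136 counts in the control library, 39 after 3 injections, 125 with PRP after 3, 42 after 5 injections and 179 with PRP after 5. In the same order its level was 7.03, 2.04, 7.48, 2.62 and 6.97 TPM. The cisplatin levels were 3.45-fold and 2.69-fold lower than control. The 3-injection interval (1.45 to 2.78 TPM) and the 5-injection interval (1.88 to 3.54 TPM) overlapped each other and lay below those of the other 3 ovaries. Both PRP levels were within 0.08 units of control.

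The 5 remaining members were at 6.29 to 10.4 TPM in the control ovary and were 320 to 522 bases long. In transcript_303945 the levels were 10.4 TPM in the control ovary, 3.15 and 4.32 TPM after 3 and 5 injections, and 9.77 and 9.71 TPM with PRP. In transcript_37020 they were 7.39 TPM, then 0.95 and 2.54 TPM, and with PRP 7.78 and 6.35 TPM. Both were near the limit of the rule, and their counting intervals overlapped between a cisplatin ovary and at least 1 of the other ovaries, as did those of transcript_205970. For the other 17 members both cisplatin intervals lay below all 3 others. In transcript_31883 the PRP ovaries differed the most among the members, at 12.2 TPM after 3 injections and 4.65 TPM after 5, on either side of the control level of 6.29 TPM. The remaining transcript_325724 and transcript_201937 were at 8.76 and 8.21 TPM in the control ovary. Their cisplatin levels were 1.67 to 2.43 TPM and their PRP levels 5.62 to 8.14 TPM.

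The 2 schedules were compared within the members, a difference that the rule does not fix directly. Between the cisplatin ovaries the median difference, 5 injections minus 3, was 0.00 over the members and -0.01 over the 17108 transcripts. Of the members 7 were higher after 5 injections, 8 were lower and 5 had estimated counts that rounded to 0 in both. At least 1 unit apart were 2 upward, transcript_170716 and transcript_73068, and 1 downward, transcript_146651. Among all 17108 transcripts 10.5% were at least 1 unit higher after 5 injections and 6.74% lower. Between the PRP ovaries the members' median, 5 injections minus 3, was -0.15, against -0.43 over the 17108 transcripts. Of the members 14 were lower in the 5-injection PRP ovary and 6 were higher. At least 1 unit lower was transcript_31883 alone, and none was 1 unit higher, while 28.8% of the 17108 transcripts were at least 1 unit lower and 10.2% higher. The rule holds the members' PRP levels within 1 unit of control, so the smaller spread follows from how they were picked.

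The position relative to control was mixed. In the 3-injection PRP ovary 11 members lay above control and 9 below, with a median difference of 0.06. In the 5-injection PRP ovary 7 lay above and 13 below, with a median of -0.09. In 6 members both PRP levels were above control and in 8 both were below. Over the 17108 transcripts the medians were 0.12 and -0.43.

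Length and whole estimates were not steps of the rule. TPM divides counts by length, however, so a short transcript reaches 5 TPM with fewer counts. The members' median length was 446 bases, and 12 of the 20, or 60%, were shorter than 500 bases. Over the 17108 transcripts the median was 1254.5 bases and 25.1% were shorter than 500 bases. The 1102 lowered transcripts that did not return in both PRP ovaries had a median of 451 bases and 57.4% were shorter than 500. The members thus had lengths like those of the other lowered transcripts, and both sets were shorter than the 17108. This holds for levels in TPM. With counts scaled by the library total without length (CPM), 15 transcripts passed the rule, and 1 of them was shorter than 500 bases. Whole estimates in every library were found for 1 member (5%), for 2.99% of the other lowered transcripts and for 14% of the 17108. Among those of the 17108 shorter than 500 bases the share was 5.52%. Short length and divided reads went together with the lowered levels, and their part in the result was not tested.

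**Figure D3:**
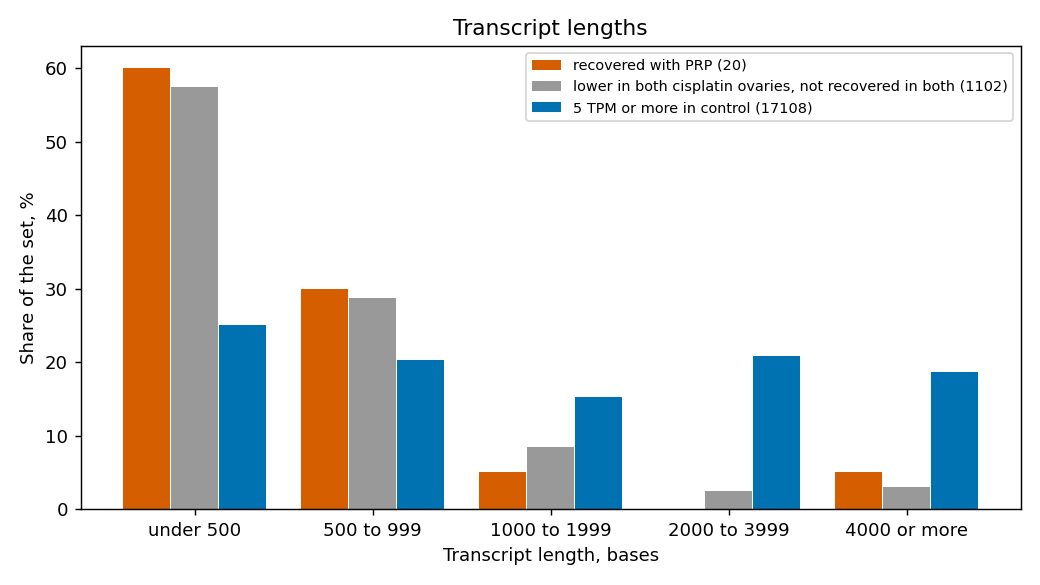
Share of transcripts (y, in %) in 5 length classes (x, in bases) for the 20 members, the 1102 other transcripts lower in both cisplatin ovaries, and the 17108 transcripts at 5 TPM or more in control. In the class under 500 bases the bars stand at 60%, 57.4% and 25.1%.

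In the control ovary 15 of the 20 members, or 75%, were under 20 TPM, against 63.4% of the 17108 transcripts and 46.7% of the other lowered transcripts. At 50 TPM or more were 20% of the members, 15.8% of the 17108 and 29.6% of the other lowered transcripts. Fewer than 100 estimated counts in the control library were held by 11 members, and the members' median was 66.7. Of the members 45% were between 5 and 10 TPM in the control ovary, against 23.5% of the other lowered transcripts and 36.1% of the 17108. Among lowered transcripts, members were 9 of 268 at 5 to 10 TPM, 6 of 262 at 10 to 20 TPM, 1 of 262 at 20 to 50 TPM, 2 of 132 at 50 to 100 TPM and 2 of 198 at 100 TPM or more.

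Several transcripts lay close to the limits. Just inside were transcript_303945, 0.01 units past the required difference between the 5-injection PRP and cisplatin ovaries, transcript_205970, 0.034 units past it on the 3-injection side, and transcript_37020, 0.052 units past it on the 5-injection side. Just outside was transcript_44169, of 3544 bases, at 113 TPM in the control ovary, 34.1 and 30.4 TPM after 3 and 5 injections, and 111.7 and 59.8 TPM with PRP. Its 5-injection PRP level was 0.96 units above cisplatin alone. Also outside were transcript_91591, whose 5-injection PRP level was 1.04 units above control, and transcript_288266, at 4.75 TPM in the control ovary.

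The membership changed with the scaling and the limits. The same 20 transcripts passed with the TPM values and with the counts as deposited. With a pseudocount of 0.1, 19 of them passed, with quantile normalization 18 and with median-of-ratios scaling 16. With CPM, a count scaled by the library total without length, 6 passed. In that setting 12 of the 20 were under the filter of 5 CPM, and without the filter 11 passed and 9 did not reach the differences the rule asks for. The pseudocount of 1 was kept, while the members' control levels had a median of 2.46 CPM and a minimum of 0.67 CPM. A transcript under 1 CPM cannot be 1 unit lower even at 0 counts. The parts of the pseudocount and of the length scaling in this result were not separated. The 3 members that passed under all 8 settings of scaling and pseudocount were transcript_52277, transcript_380136 and transcript_347199. Among the other abundant members, transcript_380574 and transcript_141200 passed neither with CPM nor with median-of-ratios scaling.

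**Figure D4:**
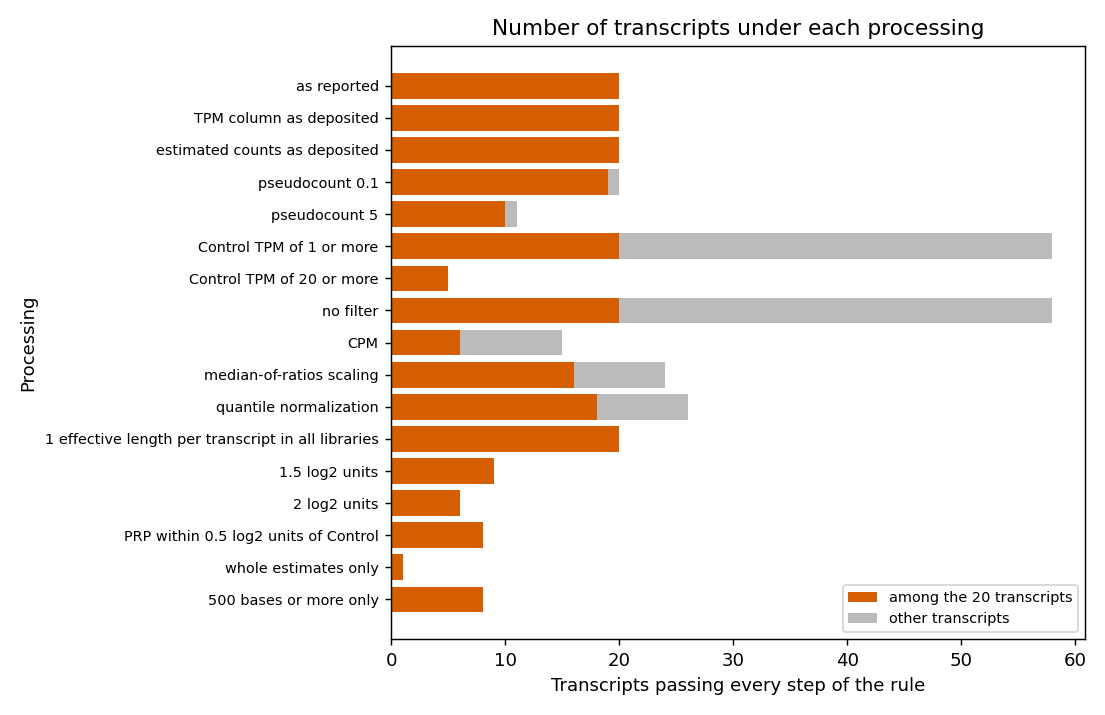
Number of transcripts passing every step of the rule (x) under each processing (y). Orange marks those among the 20 members and grey marks others. Lowering the control minimum to 1 TPM adds 38 transcripts to the 20, and raising it to 20 TPM leaves 5.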

How the data were processed

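RNA sequencing of 5 ovaries, 1 per treatment group, was used. Per the labels' protocols, RNA was extracted with a column kit and made into stranded libraries, and HISAT2, fastp, MultiQC and FastQC appear, without versions, in the submitters' processing notes. These sources name no abundance program, transcript set or genome build. Per the file headers, the deposited tables hold lengths, effective lengths, estimated counts and TPM for transcripts above 0. Unlisted transcripts were taken as 0. The deposited TPM column is treated as a score, because 61 to 110 values per library were over 100 times too large against count divided by effective length. The deposited estimated counts of 0 to 5 transcripts per library were likewise too large and were divided by 1000. None of these was a member. TPM was then recomputed to 1000000 per library.

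Groups came from the treatment labels. Named transcripts were the 8 members with the highest control level, the 8 with the largest smaller difference, those with whole estimates (within 1e-06), the 4 longest, and 3 on each side of a limit. The other 5 members were named after their values were seen. The members, the rule and the settings were chosen with earlier results of these data known. Of the transcript identifiers, 0 were found in the GRCr8 gene table. Intervals are exact Poisson 95% on rounded counts, and floors are 3 counts per library. Both cover counting error only. The code of the rule was run on simulated Poisson counts with planted falls. The simulation had no differences between animals and no divided reads, so it checks the code and not the members. Python 3.11.15, pandas 2.3.3, NumPy 2.4.6 and SciPy 1.17.1 were used.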

Additional observations from a re-analysis of the deposited data

How the results depend on the processing

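Leaving out a replicate was not possible with 1 library per group. No paired analysis was possible because each group has 1 library and no test was made. The number of members was 20 as reported, and 11 to 26 under the settings of pseudocount and scaling. It was 11 with a pseudocount of 5, of which 10 were among the 20. It was 58 with a control minimum of 1 TPM and 58 without a filter, since no transcript under 1 TPM can be 1 unit lower, and 5 with a minimum of 20 TPM. Limits of 1.5 and 2 log2 units gave 9 and 6, PRP levels within 0.5 log2 units of control gave 8, whole estimates alone gave 1 and transcripts of 500 bases or more gave 8. In these last settings the smaller number follows from stricter limits or fewer transcripts. The number lower in both cisplatin ovaries was 1122 as reported. It was 2177 with a control minimum of 1 TPM, 2177 without a filter and 592 with 20 TPM. Limits of 1.5 and 2 log2 units gave 647 and 413, whole estimates 34 and transcripts of 500 bases or more 477. Scaling and pseudocount changed it too, from 758 with a pseudocount of 5 to 1571 with median-of-ratios scaling. CPM gave 911 and quantile normalization 1310. Members were 0.713% to 2.94% of the lowered transcripts over all settings. Median-of-ratios scaling moved the median of the 17108 transcripts by -0.21 and -0.23 for the differences of the cisplatin ovaries from control. It moved that of the 5-injection PRP ovary by 0.45 against its cisplatin ovary and by 0.23 against control. For the 15 members named by the rule, 480 differences under 8 settings kept their direction, and 112 moved beyond their counting interval. The members had been picked by the direction of these same differences, so the kept direction is no separate evidence. Counting error limits the low members: 11 of the 20 had under 100 counts in the control library.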

Other observations

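Transcript numbers were examined as the only identity the files give, although the sources used here do not say how the numbers were assigned. Over 8229 pairs of consecutive numbers in which both transcripts reached 5 TPM in some library, the lengths of the 2 had a Spearman correlation of 0.559, given as a description across pairs that share transcripts. The numbers directly before or after a member that reached 1 TPM in some library were 16 transcripts, next to 13 members. Of these 16, 5 reached the 5 TPM in the control ovary that the rule requires, too few for a count of members among them to be read. Next to the longest member, transcript_52278 was at 9.84 TPM in the control ovary, 12.0 and 12.2 TPM after 3 and 5 injections, and 7.52 and 8.22 TPM with PRP, so it was slightly higher where the member was low. Next to transcript_141200, transcript_141201 was at 216.6 TPM in the control ovary, 333.5 and 267.7 TPM after 3 and 5 injections and 359.7 and 421.6 TPM with PRP. Next to transcript_380136, transcript_380135 was at 136.4 TPM in the control ovary, 67.0 TPM after 3 injections and 151.4 TPM with PRP added, a difference of -1.01 and then of 1.16 units in the direction of its neighbour. After 5 injections it was at 165.0 TPM, and at 59.7 TPM with PRP added, opposite to its neighbour. The other 2 of the 5 were transcript_170715, at 23.5 TPM in the control ovary, 18.8 and 29.9 TPM after 3 and 5 injections and 20.7 and 6.87 TPM with PRP, and transcript_335610, at 12.7 TPM, then 17.7 and 13.0 TPM, and 17.9 and 14.5 TPM with PRP. Among the neighbours under 5 TPM was transcript_380573, of 837 bases, next to transcript_380574. It was at 1.31 and 1.37 TPM after 3 and 5 injections and at 0 TPM in the other ovaries, opposite to the member. Whether reads were divided between them was not tested. The members transcript_380136, transcript_380223 and transcript_380574 had numbers 87 and 351 apart, and transcript_325461 and transcript_325724 were 263 apart. Lowered transcripts that were not members also lay between the first 3 numbers, among them transcript_380167 and transcript_380272. The share of close numbers among other transcripts was not computed, so closeness cannot be called particular to the members.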
